A study of Mus musculus with 2 samples.

Results

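The Ly6 family was followed across the cell classes of dystrophic hind limb muscle through 6 genes, Ly6a, Ly6c1, Ly6c2, Ly6e, Ly6d and Ly6i, out of 24984 genes in the deposited files. The members were chosen by their known levels in these same cells, where they differ sharply between cell classes and between the libraries, so their levels are given as a description with no test. For each of the 6 genes, unique molecular identifiers (UMIs, each marking one captured RNA molecule) were summed over the cells of a class and a library and divided by the UMI total of that class, and given as CPM, the usual depth-normalised scale. CPM is compared here only for the same gene.

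Ly6 proteins are small members of the Ly6/uPAR superfamily, most of them tethered to the outer cell surface by a glycosylphosphatidylinositol (GPI) anchor, and many of their genes lie in one cluster on mouse chromosome 15. Ly6a encodes Sca-1, the surface antigen used to sort fibro-adipogenic progenitors (FAPs) from muscle and found on endothelial cells (ECs). Ly6c1 and Ly6c2 encode the Ly6C antigens of endothelium, monocytes and memory CD8 T cells, Ly6d marks the B lineage, and Ly6a, Ly6c and Ly6e belong to the genes that interferons induce.

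Single-cell RNA sequencing (10x Chromium droplets) profiled the live mononuclear fraction, sorted as negative for propidium iodide, of hind limb muscle from mdx mice, which lack dystrophin. The Ctrl group carried Pax7CreERT2/R26YFP with Yy1+/+ and the dKO group carried Pax7CreERT2/R26YFP with Yy1f/f, both on the mdx background and both given tamoxifen (TMX). Cre was driven by Pax7, the defining gene of muscle stem cells (MuSCs), so the other classes compared here were not themselves the target of the deletion. Each group is 1 library of 3 pooled mice taken 1 month after TMX. With 1 library per group no test of genotype can be made and no p-value is given. Intervals are 95% exact counting intervals (Poisson for CPM, binomial for shares and ratios). They cover counting error only, not the spread of UMIs between cells or differences between mice or libraries.

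The files held 4527 Ctrl and 3483 dKO barcodes with 45556596 and 33815155 UMIs. After cells under 500 genes and the top 7.5% of doublet scores were removed, 4010 Ctrl cells (median 7880 UMIs) and 3079 dKO cells (median 7806 UMIs) remained. Only 7 barcodes occurred in both libraries. Clusters were named from marker panels as FAP-like (1122 Ctrl and 1181 dKO cells), EC-like (465 and 179), monocyte and macrophage (MO/MP)-like (1519 and 1163), T cell-like (124 and 140), dendritic cell-like (114 and 103), B cell-like (142 and 87), neutrophil-like (98 and 36), tenocyte-like (147 and 90), smooth muscle/pericyte-like (107 and 38), MuSC-like (117 and 30) and lymphatic EC-like (18 and 13). Another 37 and 19 cells were given no class. Ly6 family genes were left out of the clustering. The targeted gene, Yy1, stood at 159.7 CPM in Ctrl MuSC-like cells (interval 144 to 177) and at 4.85 CPM in dKO MuSC-like cells (3 UMIs, interval 1.00 to 14.2), against 124 and 133 CPM in FAP-like cells and 136 and 149 CPM in MO/MP-like cells.

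The 6 genes lie within 349915 bp of chromosome 15 (GRCm38, GENCODE M21 annotation), all protein coding. In order they are Ly6d (chr15:74762056-74763620, minus strand), Ly6e (chr15:74955051-74959905, plus strand), Ly6i (chr15:74979534-74983430, minus strand), Ly6a (chr15:74994877-74998031, minus strand), Ly6c1 (chr15:75044018-75048830, minus strand) and Ly6c2 (chr15:75108158-75111970, minus strand). Over the last 500 bases of the longest coding transcripts, the stretch that a 3′ library samples, Ly6c1 and Ly6c2 were identical at 95.5% of alignment columns. Gaps and overhanging ends are counted as columns here, which lowers each share of identity. Ly6a, Ly6c1, Ly6c2 and Ly6i matched one another at 83.9% to 85.8% in the other pairs. Ly6e and Ly6d matched each other and the rest at 49.3% to 50.7%. The read length is not given in the sources used here, so windows of 90 bases were taken as an assumed length. Of the 411 such windows in each of these ends, 35 of Ly6c1 (8.52%) and 35 of Ly6c2 occurred unchanged in another gene, and 0 in the other 4 members. A read inside such a window cannot be assigned to one gene, so counts of Ly6c1 and Ly6c2 hold that uncertainty.

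The starts of Ly6c1 and Ly6c2 are shown because this near-identical pair had the least alike levels over the cell classes. Both windows run from 250 bases before to 50 after a transcription start on the minus strand, with RefSeq sequence of GRCm38.p6 (chr15:75048788-75049087 for Ly6c1, chr15:75111922-75112221 for Ly6c2). Capitals mark GAGGAAGT, a core that the myeloid ETS factor PU.1 recognises, searched on both strands.
Ly6c1: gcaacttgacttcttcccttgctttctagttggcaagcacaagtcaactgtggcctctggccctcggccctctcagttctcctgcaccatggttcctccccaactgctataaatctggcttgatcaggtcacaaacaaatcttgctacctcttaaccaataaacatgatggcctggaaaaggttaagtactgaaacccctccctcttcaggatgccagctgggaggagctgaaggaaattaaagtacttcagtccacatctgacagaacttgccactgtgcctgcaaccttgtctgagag
Ly6c2: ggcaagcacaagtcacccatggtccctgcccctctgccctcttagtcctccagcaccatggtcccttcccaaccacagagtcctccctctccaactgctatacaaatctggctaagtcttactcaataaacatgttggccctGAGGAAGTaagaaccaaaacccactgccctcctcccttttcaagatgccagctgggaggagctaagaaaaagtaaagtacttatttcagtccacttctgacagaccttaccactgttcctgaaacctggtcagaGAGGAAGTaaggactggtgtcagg
The printed windows were identical at 213 of 335 alignment columns (63.6%), again with gaps and overhanging ends counted. They begin at different points of the shared sequence, which lowers this share. The core was found 2 times in the Ly6c2 window, its first base 108 bases before the start and 27 after it, and 0 times in the printed Ly6c1 window, while the window of the second RefSeq start of Ly6c1 had 1 match. The printed Ly6c1 window ends inside that match, so the count of 2 against 0 depends in part on where the windows end. GAGGAAGT occurred in 1052 of 32851 promoters of the same length (3.20%). Neither TTCNNNGAA, the interferon-gamma-activated element (8.30% of promoters), nor the paired GAAA half-sites of the interferon-stimulated response element with any 2 bases between them (3.44%), was found in any of the 4 RefSeq windows of the pair. A match is a run of letters, not a bound site. The promoter table held 2 of the 6 members.

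Each member had its own map over the classes. In Ctrl, Ly6a was highest in EC-like and FAP-like cells, whose intervals overlapped, and Ly6c1 in EC-like cells, followed by FAP-like cells. Ly6c2 was highest in neutrophil-like cells, and Ly6d was highest in B cell-like cells. Ly6e was present in every class, and Ly6i was close to absent, with 58 UMIs in the whole Ctrl library and 59 in dKO. Over all kept cells, a UMI of Ly6a was found in 48.4% of Ctrl and 67.8% of dKO cells, of Ly6c1 in 37.2% and 42.2%, of Ly6c2 in 10.8% and 15.5%, and of Ly6e in 80.6% and 90.4%. The plot of levels by class shows these maps for both libraries.

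**Figure D1:**
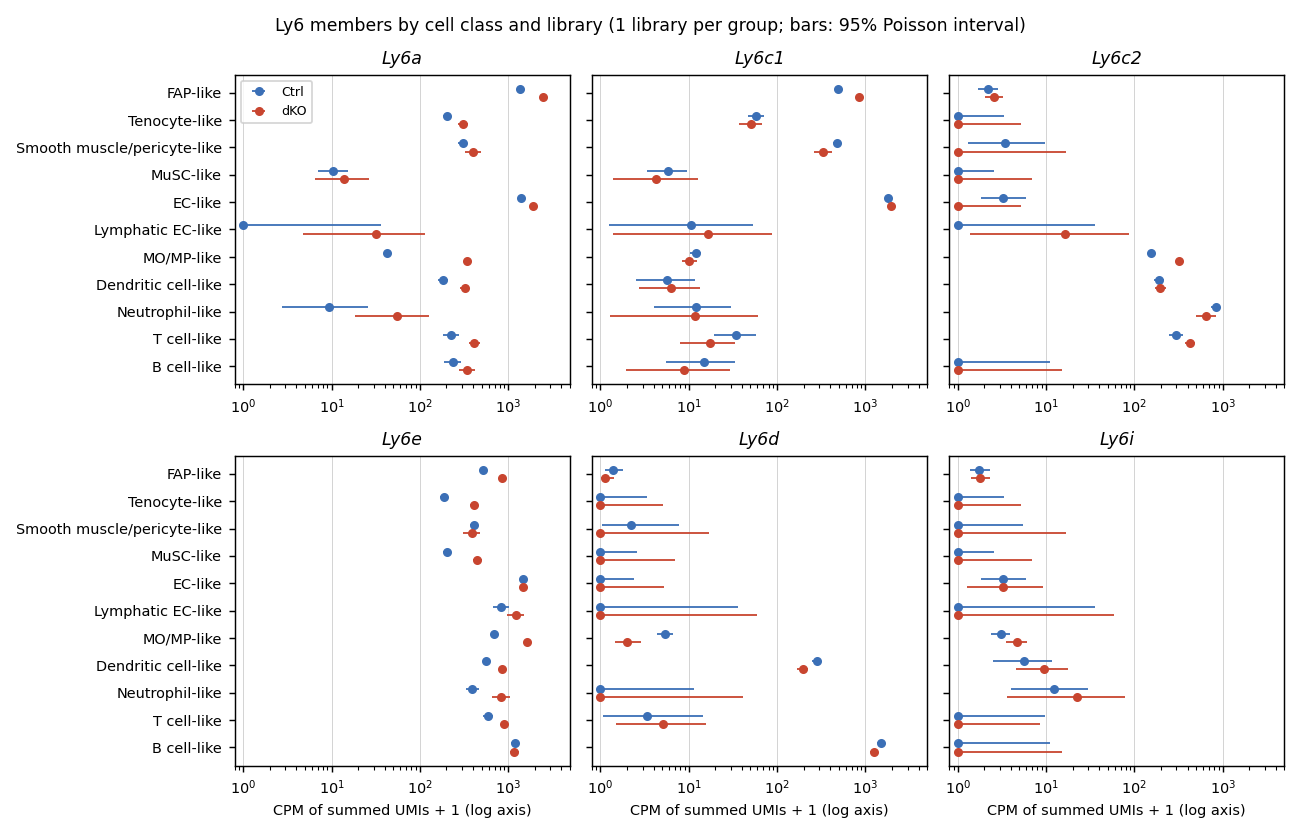
Level of each of the 6 Ly6 members (x axis, CPM of summed UMIs + 1, log axis) in 11 cell classes (y axis), with 1 point for Ctrl (blue) and 1 for dKO (red) and bars for the 95% Poisson interval of the counts. Ly6a and Ly6c1 lie furthest right in EC-like and FAP-like cells, Ly6c2 in neutrophil-like cells and Ly6d in B cell-like cells, while Ly6e lies above 100 CPM in every class.

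Ly6a, the Sca-1 gene, stood at 1364 CPM in Ctrl (1346 to 1383) and 2470.4 CPM in dKO (2447 to 2494) in FAP-like cells. In EC-like cells it stood at 1385 CPM in Ctrl and 1891 CPM in dKO. The intervals of these classes overlapped in Ctrl, whereas in dKO the FAP-like level lay above the EC-like one. FAP-like cells held 80.4% of all Ly6a UMIs in Ctrl and 87.6% in dKO, and EC-like cells 13.6% and 3.51%. Far below followed smooth muscle/pericyte-like (304 and 402 CPM), B cell-like (235 and 344), T cell-like (223 and 413), tenocyte-like (202 and 308) and dendritic cell-like cells (182 and 321), all with overlapping intervals between neighbours in Ctrl. In tenocyte-like cells 1 cell gave 38.2% of the Ctrl and 1 gave 13.9% of the dKO Ly6a UMIs, so the level and ratio there lean on single cells. In dKO smooth muscle/pericyte-like cells 93 Ly6a UMIs came from 8 of 38 cells, 32.3% of them from 1 cell. Smooth muscle/pericyte-like cells also held EC markers, 7422 CPM in Ctrl and 3884 CPM in dKO of 14 summed genes (13 and 12 detected) against 27470.5 and 26905 CPM in EC-like cells, and their part in the Ly6a level was not tested. MO/MP-like cells stood at 41.3 CPM in Ctrl, below each of these, and at 344 CPM in dKO, where the interval overlapped those of B cell-like and dendritic cell-like cells. MuSC-like cells, in which Sca-1 is used as a negative marker, had 9.52 and 12.9 CPM. With every cell thinned to 2000 UMIs, a Ly6a UMI was found in 1.79% of Ctrl and 0 of 30 dKO MuSC-like cells, which allows a share of up to 10.0%. These MuSC-like shares serve as the background for free RNA, against 75.7% and 90.7% of FAP-like cells and 82.2% and 83.9% of EC-like cells at the same depth. The unthinned shares were 94.0% and 97.5% in FAP-like, 90.5% and 93.3% in EC-like and 15.4% and 23.3% in MuSC-like cells.

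Ly6c1, of the Ly6C pair, stood highest in EC-like cells, at 1813 CPM in Ctrl (1762 to 1865) and 1929 CPM in dKO (1838 to 2023). FAP-like cells followed with 488 and 845 CPM, clearly below ECs in both libraries. They nonetheless held 58.5% of all Ly6c1 UMIs in Ctrl and 88.0% in dKO, against 36.3% and 10.5% in EC-like cells. Smooth muscle/pericyte-like cells had 479 and 333 CPM, the dKO value from 6 of 38 cells. The part of the EC marker sums given above in this Ly6c1 level was not tested either. All other classes were under 60 CPM, with tenocyte-like cells at 56.3 and 49.6 CPM and MO/MP-like cells at 11.1 and 9.14 CPM.

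Ly6c2, the other gene of the pair, was nearly the reverse. Among whole classes, neutrophil-like cells stood highest with 836 CPM in Ctrl (744 to 937) and 648 CPM in dKO (494 to 834). These cells were shallow (median 2385 and 1664 UMIs), and a Ly6c2 UMI was found in 69.1% of the 55 Ctrl and 68.8% of the 16 dKO cells that could be thinned to 2000 UMIs. T cell-like cells followed with 298 and 427 CPM. Dendritic cell-like cells had 189.7 and 196 CPM, and MO/MP-like cells 152 and 321 CPM. Because they are numerous, MO/MP-like cells nonetheless held 77.6% of the Ly6c2 UMIs in Ctrl and 85.9% in dKO. In FAP-like cells the level was 1.19 and 1.56 CPM, and in EC-like cells 2.25 CPM in Ctrl and 0 in dKO. No UMI was found in B cell-like cells of either library, where a count of 0 allows up to 8.29 CPM in Ctrl and 11.6 CPM in dKO.

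The share of Ly6c1 in the summed UMIs of the Ly6c1 and Ly6c2 pair put the contrast on one scale. It was 99.8% in FAP-like cells of both libraries (7798 Ly6c1 UMIs and 19 of Ly6c2 in Ctrl), 99.9% and 100% in EC-like cells, and 6.80% and 2.77% in MO/MP-like cells. Dendritic cell-like cells had 2.38% and 2.60%, and neutrophil-like cells 1.32% and 1.64%. T cell-like cells stood at 10.1% in Ctrl (5.66% to 16.4%) and 3.67% in dKO (1.60% to 7.10%). Among MO/MP-like cells at 2000 UMIs, 160 Ctrl cells had Ly6c2 alone, 17 had Ly6c1 alone and 3 had both, and in dKO the numbers were 247, 16 and 2. The stromal and endothelial classes thus lay at one end and the myeloid and T cell-like classes at the other, as the plot of the pair shows.

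**Figure D2:**
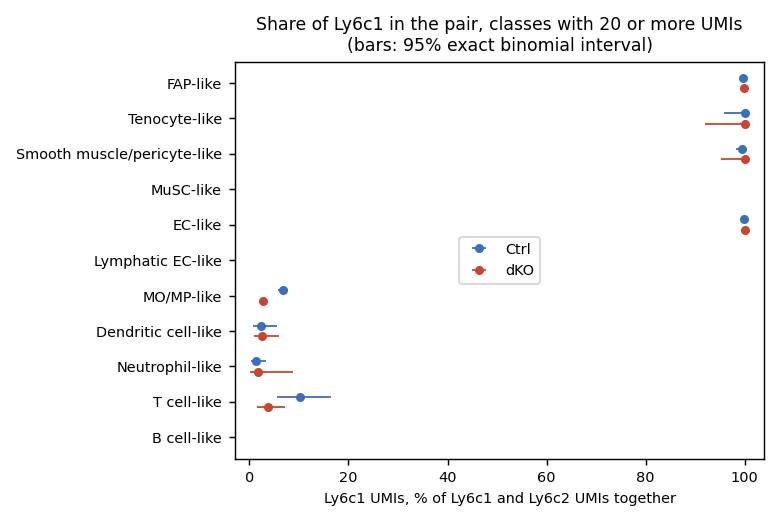
Ly6c1 UMIs as a percent of Ly6c1 and Ly6c2 UMIs together (x axis) by cell class (y axis), for Ctrl (blue) and dKO (red) where a class had 20 or more UMIs of the pair, with 95% exact binomial intervals as bars. Points of FAP-like, tenocyte-like, smooth muscle/pericyte-like and EC-like cells sit above 99%, and those of MO/MP-like, dendritic cell-like, neutrophil-like and T cell-like cells sit at or below 10.1%.

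The T cell-like class also held all 8 markers of NK cells, summing to 2369 CPM in Ctrl and 2483 CPM in dKO beside 2978 and 3521 CPM of its 10 T cell markers. All 7 mast cell markers summed to 1394 and 1078 CPM in it, and the 12 cycling markers to 266 and 576 CPM (11 and 12 detected). The part of these cells in the levels and ratios of the class was not tested. Within T cell-like cells, Ly6c2 was higher in cells with Cd8 transcripts than in cells with Cd4. Cells with Cd8a or Cd8b1 UMIs and no Cd4 UMI (20 Ctrl and 25 dKO cells) had 962 CPM of Ly6c2 in Ctrl (753 to 1212) and 1413 CPM in dKO (1177 to 1682). The dKO value, 30.2% of it from 1 cell, lay above that of dKO neutrophil-like cells (494 to 834), and the Ctrl intervals overlapped. Cells with Cd4 and no Cd8 UMI (33 and 28 cells) had 158 CPM in Ctrl, 88.2% of it from 1 cell, and 17.4 CPM in dKO (2 UMIs). Cells with neither had 152 and 285 CPM. The Cd8 and Cd4 strata did not overlap in their intervals in either library.

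Ly6e, a widely expressed member, spanned the narrowest range, from 187 CPM in tenocyte-like to 1454 CPM in EC-like cells in Ctrl, a 7.78-fold range. In dKO it spanned 384 CPM in smooth muscle/pericyte-like to 1612 CPM in MO/MP-like cells, a 4.19-fold range. In Ctrl the next classes were B cell-like (1196 CPM), lymphatic EC-like (835 CPM) and MO/MP-like (686 CPM). The highest class differed between the libraries, since MO/MP-like cells lay above EC-like cells in dKO (1469 CPM) with intervals that did not overlap. With Ly6 genes kept in the clustering, the MO/MP-like level in dKO was 1542 CPM, inside the EC-like interval (1389 to 1551), and the order was not resolved.

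Ly6d stood at 1481 CPM in B cell-like cells in Ctrl (1358 to 1611) and 1245 CPM in dKO (1113 to 1389). Thinned to 2000 UMIs, 68.0% and 71.8% of B cell-like cells had a Ly6d UMI, against 0.09% of FAP-like cells in each library (0.094% and 0.089%). In the dendritic cell-like class it stood at 279 and 195 CPM, but 1 cell gave 74.8% of those UMIs in Ctrl and 1 cell gave 100% in dKO. Outside the B cell-like class few cells thus carried it.

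Ly6i, which lies between Ly6e and Ly6a among the members, had 31 UMIs in Ctrl and 34 in dKO MO/MP-like cells (2.08 and 3.70 CPM), which hold 53.4% and 57.6% of all its UMIs. Neutrophil-like cells had 4 and 2 UMIs (11.2 and 21.6 CPM). Its level in MO/MP-like cells lay above that in FAP-like cells (0.751 and 0.782 CPM) in both libraries with intervals that did not overlap. At this depth most of the rest of its order over the classes was not resolved.

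The dKO to Ctrl ratio was counted for genes with 100 or more UMIs in a class over both libraries, and called higher or lower past 1.5-fold. Ratios from fewer UMIs are also printed, for T cell-like strata and for Ly6i in MO/MP-like cells. These contrasts were known when the members were chosen, so nothing is read from the counts that follow. In FAP-like cells 3 of the 6 members had enough UMIs and all 3, Ly6a, Ly6c1 and Ly6e, were past 1.5-fold higher, where 2.75% of 10451 genes were, and 0 were lower, where 2.81% of genes were. In MO/MP-like cells 3 of 4, Ly6a, Ly6c2 and Ly6e, were higher, against 4.39% of 9092 genes, and 0 were lower, against 4.55%. In EC-like cells 0 of 3 were higher and 0 lower, against 4.6% and 7.33% of 4736 genes. Ly6a and Ly6e were the 2 members past 1.5-fold higher in tenocyte-like (2 of 3, background 2.94%), dendritic cell-like (2 of 4, background 5.57%) and T cell-like cells (2 of 3, background 4.77%). With the median gene of the class set to 0, Ly6e was no longer past 1.5-fold in dendritic cell-like and T cell-like cells, which left 1 member in each. In B cell-like cells 0 of 3 were, against 3.66% of genes. The median log2 ratio of the members tested was 0.79 in FAP-like, 1.16 in MO/MP-like and 0.09 in EC-like cells, beside −0.05, −0.02 and −0.03 over all genes tested.

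In FAP-like cells, Ly6a was 1.81-fold higher in dKO (1.78 to 1.84), Ly6c1 1.73-fold higher (1.68 to 1.78) and Ly6e 1.65-fold higher (1.61 to 1.70). Median depths were nearly equal, 12173.5 and 12116 UMIs. More FAP-like cells carried the surface antigen transcripts together, with Ly6a and Ly6c1 both found in 43.5% of Ctrl cells and 64.4% of dKO cells at 2000 UMIs. Beside these, the 14 MO/MP markers summed to 494 CPM in Ctrl and 864 CPM in dKO FAP-like cells, 14 of 14 detected in both. The 13 dendritic cell markers summed to 346 and 605 CPM in the same cells (13 and 10 detected), and the 9 perineurial cell markers to 25.7 and 48.3 CPM (8 and 9 detected). The part of these transcripts in the ratios was not tested.

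In MO/MP-like cells the ratio of Ly6a was 8.32 (7.63 to 9.09), from 615 UMIs in Ctrl to 3159 in dKO. Thinned to 2000 UMIs, 5.68% of Ctrl and 29.2% of dKO cells had a Ly6a UMI, beside 1.79% (0.217% to 6.30%) and 0% of MuSC-like cells. The interval of the thinned Ctrl share overlapped that of this background, while the dKO share lay above it. By level, the 41.3 CPM of Ctrl MO/MP-like cells (38.1 to 44.7) lay above the 9.52 CPM of Ctrl MuSC-like cells (5.97 to 14.4). Without thinning, 16.5% and 46.3% had one, and the median cell held 8146 and 6941 UMIs. The 12 FAP markers, all 12 detected in both libraries, summed to 521 CPM in Ctrl and 390.2 CPM in dKO MO/MP-like cells. Among MO/MP-like cells with 0 UMIs of these markers, Ly6a stood at 39.2 CPM in 132 Ctrl cells and 362 CPM in 157 dKO cells. Ly6c1 had a ratio of 0.825 in the class (0.627 to 1.08). The part of RNA from other cells in these ratios was not tested.

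Ly6c2 was 2.11-fold higher (2.0 to 2.23) and Ly6e 2.35-fold higher (2.29 to 2.41) in dKO MO/MP-like cells. Ly6a and Ly6e occurred together in 4.95% of Ctrl and 27.6% of dKO cells at 2000 UMIs. The 11 neutrophil markers summed to 3431 CPM in Ctrl and 125 CPM in dKO MO/MP-like cells, 11 of 11 detected in both. Almost all of that Ctrl signal lay in 1 sub-cluster led by S100a9, S100a8 and cell cycle genes, with 26286 CPM of neutrophil markers in Ctrl (103 cells) and 401 CPM in dKO (35 cells). Without that sub-cluster the Ly6c2 ratio was 3.02.

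In EC-like cells Ly6a was 1.37-fold higher in dKO (1.29 to 1.45), Ly6c1 1.06-fold (1.01 to 1.12) and Ly6e 1.01-fold (0.948 to 1.08). With no doublets removed the direction of Ly6c1 turned, to a ratio of 0.945. Dendritic cell-like cells had ratios of 1.76 for Ly6a (1.47 to 2.12), 1.505 for Ly6e (1.35 to 1.67) and 1.03 for Ly6c2 (0.844 to 1.27). T cell-like cells had 1.85 for Ly6a (1.44 to 2.39), 1.54 for Ly6e and 1.44 for Ly6c2 (1.14 to 1.81). Within them the Ly6a ratio was 2.07 in cells with Cd8 UMIs (1.05 to 4.29), 1.24 in cells with Cd4 UMIs (0.794 to 1.96) and 2.28 in cells with neither (1.60 to 3.30), with overlapping intervals. The Ly6e ratio was 0.839 in cells with Cd8 UMIs (0.542 to 1.30), 1.43 in cells with Cd4 UMIs and 1.77 in cells with neither (1.45 to 2.17). The Ly6c2 ratio was 1.47 in the Cd8 stratum (1.09 to 1.99) and 1.88 in cells with neither (1.25 to 2.88), with overlapping intervals. The Cd4 stratum held 17 and 2 UMIs of Ly6c2, and 1 cell gave 88.2% of those in Ctrl, so no ratio is read from it. B cell-like cells had 1.47 for Ly6a (1.08 to 2.0), 0.983 for Ly6e (0.846 to 1.14) and 0.841 for Ly6d (0.730 to 0.968). The same gene thus had unlike ratios in different classes of one pair of libraries, although differences between classes were not tested. Ly6e was also 2.22-fold higher in MuSC-like cells (1.91 to 2.59), from 201 to 448 CPM, the class in which Yy1 was deleted, where 7.51% of 3982 genes were past 1.5-fold higher and 13.4% lower. With 30 dKO cells in that class, the share with a Ly6e UMI was 70.1% in Ctrl and 66.7% in dKO (27.7% and 36.7% at 2000 UMIs). Beside it the 12 MuSC markers summed to 4612 CPM in Ctrl and 3713 CPM in dKO, the 10 myocyte markers to 4079 and 6049.8 CPM and the 12 cycling markers to 1119 and 719 CPM, with 11, 8 and 11 of them detected in dKO, and their part in the ratio was not tested. In neutrophil-like cells Ly6e had a ratio of 2.12 (1.58 to 2.81), where 21.3% of 607 genes were past 1.5-fold higher. The 11 neutrophil markers summed to 251589 CPM in Ctrl and 144014 CPM in dKO in these cells, and 30.9% of 55 Ctrl and 31.2% of 16 dKO cells had a Ly6e UMI at 2000 UMIs. The part of the markers in that ratio was not tested. Ly6c1 in smooth muscle/pericyte-like cells had a ratio of 0.694 (0.536 to 0.888), beside the lower EC marker sum given above. Its 77 dKO UMIs came from 6 of 38 cells, 27.3% of them from 1 cell, so the ratio leans on single cells. The plot of ratios by class sets these side by side.

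**Figure D3:**
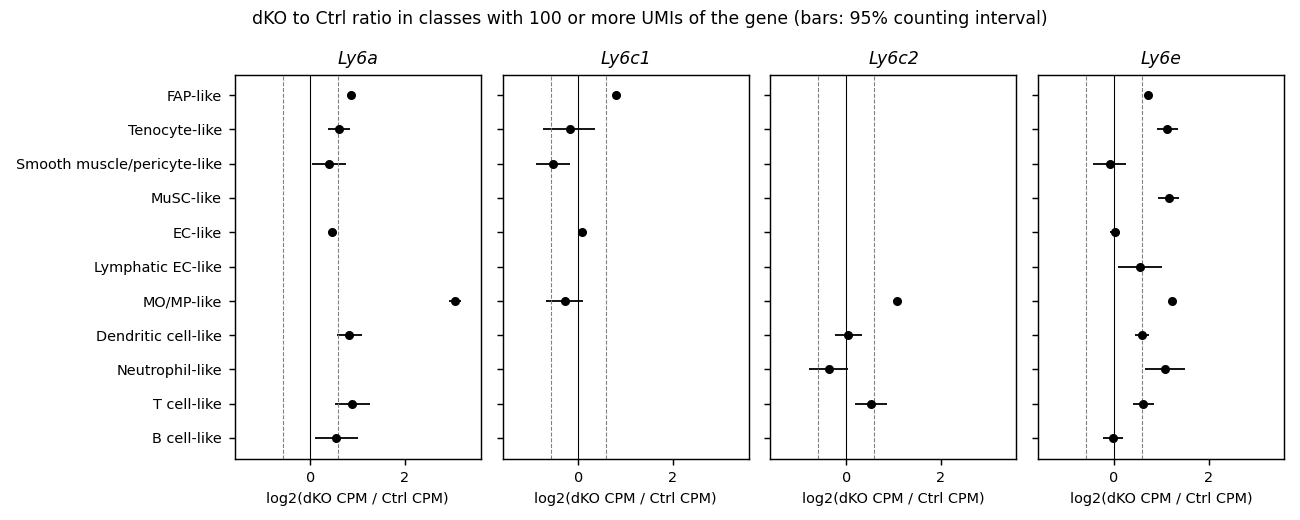
Log2 of dKO CPM over Ctrl CPM (x axis) by cell class (y axis) for Ly6a, Ly6c1, Ly6c2 and Ly6e where a class had 100 or more UMIs of the gene, with 95% counting intervals as bars, a solid line at 0 and dashed lines at 1.5-fold. Ly6a in MO/MP-like cells lies furthest right at 3.06, and Ly6c1 and Ly6e in EC-like cells lie near 0, at 0.09 and 0.01.

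Each class was split into sub-clusters to see where the members lie within it. In FAP-like cells the Pi16+ FAP-like sub-cluster (140 and 163 cells), a state of stem-like adventitial fibroblasts, had the highest level of Ly6a in both libraries, 3019 CPM in Ctrl and 3948 CPM in dKO. It also had the highest Ly6c1, 1601 and 2219.7 CPM, while its Ly6e was 436 and 745 CPM. The lowest Ly6a in Ctrl, 996 CPM, was in the sub-cluster led by C1qtnf3 and Atf3 (344 and 298 cells), where dKO had 2483 CPM. Its ratios were the highest of the FAP-like sub-clusters for Ly6a and Ly6c1, 2.49 and 2.41, beside 1.31 and 1.39 in the Pi16+ FAP-like one. In the Cxcl5+ FAP-like sub-cluster, which carries inflammatory chemokines, Ly6a stood at 1197 and 1886 CPM. In the larger Inmt+ FAP-like sub-cluster it stood at 1619 and 3472 CPM. All 7 FAP-like sub-clusters with cells in both libraries had more Ly6a and more Ly6e in dKO, with ratios of 1.14 to 2.49 and of 1.41 to 2.34. Ly6c1 had ratios of 1.01 in the smaller Inmt+ FAP-like sub-cluster (35 and 30 cells) and 0.981 in the one led by Hmmr and other cycle genes (37 and 39 cells). A further sub-cluster of 39 cells was seen in dKO alone, at a median of 1941 UMIs, with 1829 CPM of Ly6a.

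In MO/MP-like cells, all 7 sub-clusters had more Ly6a in dKO, with ratios of 2.82 to 20.8. The resident macrophage-like sub-cluster (Lyve1, Cd163, Fcna) stood at 79.2 and 756 CPM, and a C1q-high macrophage-like sub-cluster led by Calhm6 and Ifit3 at 85.4 and 618 CPM. The Ear2+ macrophage-like sub-cluster had the smallest ratio, from 31.3 to 88.2 CPM. Ly6c2 marked the monocyte-like sub-cluster (Vcan, Slpi), with 429 CPM in Ctrl and 1074 CPM in dKO, a ratio of 2.50. It was low in resident macrophage-like (22.1 and 103 CPM) and Ear2+ macrophage-like cells (6.51 and 24.0 CPM). In the sub-cluster with neutrophil markers described above it went the other way, from 447 CPM (819 UMIs) in Ctrl to 138 CPM (81 UMIs) in dKO, a ratio of 0.309. Ly6e was highest in resident macrophage-like cells, 1652 and 2767.5 CPM. Within this class in dKO, Ly6a and Ly6e thus peaked in the resident macrophage-like sub-cluster and Ly6c2 in the monocyte-like one. Not all macrophage-like sub-clusters lay above the monocyte-like one, which had 263 CPM of Ly6a and 1730 CPM of Ly6e in dKO. The Spp1+ macrophage-like one had 134 and 813 CPM, and the Ear2+ one 88.2 and 564 CPM.

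In EC-like cells the venous EC-like sub-cluster (Ackr1, Selp; 103 and 49 cells) was set apart by its low Ly6c1, 735 and 698 CPM. The capillary EC-like sub-clusters had 2249 and 3132 CPM in the larger (219 and 68 cells) and 2235 and 2128 CPM in the smaller (83 and 30 cells), and the arterial EC-like one 2263 and 2604 CPM (60 and 32 cells). Ly6a was highest in arterial EC-like cells in Ctrl, 2205 CPM, while in dKO the arterial and larger capillary EC-like sub-clusters had 2496 and 2467 CPM with overlapping intervals. The larger capillary EC-like sub-cluster had ratios of 1.81 for Ly6a and 1.39 for Ly6c1, and the smaller 0.966 and 0.952. The near equality of Ly6c1 in the class as a whole thus joins unlike sub-clusters, as the plot of sub-clusters shows.

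**Figure D4:**
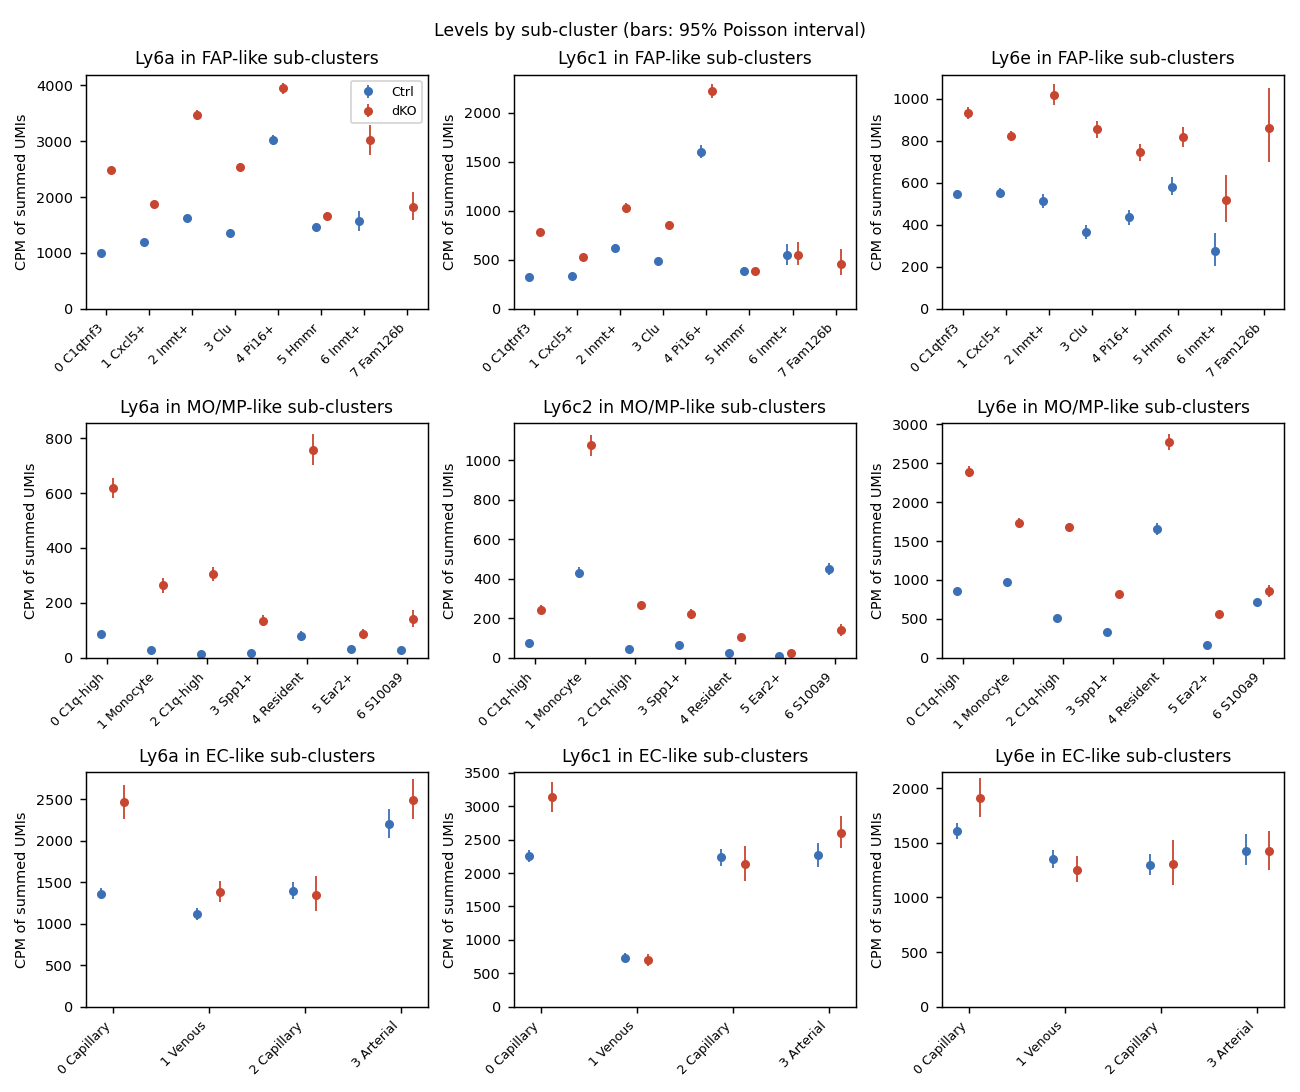
CPM of summed UMIs (y axis) by sub-cluster (x axis, with the state or a leading gene) for 3 members each in FAP-like, MO/MP-like and EC-like cells, Ctrl in blue and dKO in red, with 95% Poisson intervals as bars. Among FAP-like sub-clusters Ly6a and Ly6c1 peak in the Pi16+ one at 3948 and 2219.7 CPM in dKO, among MO/MP-like ones Ly6c2 peaks in the monocyte-like one at 1074 CPM in dKO, and among EC-like ones Ly6c1 is lowest in the venous one.

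Several Ly6 genes respond to interferon, so genes of that response were counted in the same classes. Of 30 type I interferon response genes, 29 had enough UMIs in FAP-like cells and 27 were past 1.5-fold higher in dKO, with a median log2 ratio of 1.34 and a summed level of 836 CPM in Ctrl and 1969 CPM in dKO. The highest ratios were those of Mx1 (log2 2.46), an antiviral GTPase, and Ifit3 (2.01), an RNA-binding antiviral protein. The lowest were those of Ddx58 (0.45) and Eif2ak2 (0.48), both sensors of viral RNA. In MO/MP-like cells 30 of 30 were higher, with a median of 1.25 and 1734 against 4136 CPM, from Irf9 (0.61) to Ifi44 (2.45). Irf7, a master regulator of the type I response, was second at 1.96. In EC-like cells 3 of 22 were higher and 1 lower, with a median of 0.23 and 2570.0 against 2903 CPM. Of these 3 classes, EC-like cells had the lowest ratios of Ly6a, of Ly6e and of the type I list, a side-by-side description over shared libraries. In MuSC-like cells, where Ly6e was 2.22-fold higher, the 30 genes summed to 228 CPM in Ctrl and 1016 CPM in dKO. In the same cells the FAP and MO/MP marker sums were 1016 and 456 CPM in Ctrl and 517 and 87.3 CPM in dKO. The neutrophil and erythroid marker sums were 65.4 and 0.866 CPM in Ctrl and 115 and 113 CPM in dKO. The part of any of these in the Ly6e ratio was not tested.

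Of the interferon-gamma response genes, 12 of 16 were higher in FAP-like cells (median 0.84), 14 of 18 in MO/MP-like cells (median 0.91) and 5 of 16 in EC-like cells (median 0.38), with 0 lower in each. Cxcl9, a chemokine that draws T cells, was highest in MO/MP-like cells (log2 3.19), and Iigp1, an interferon-inducible GTPase, in FAP-like cells (1.63). Of the receptors and kinases (Ifnar1, Ifnar2, Ifngr1, Ifngr2, Jak1, Jak2 and Tyk2), 0 of 7 were past 1.5-fold in FAP-like and in MO/MP-like cells. Of the genes that build and attach GPI anchors, 1 of 22 was higher (Piga, log2 0.67) and 1 lower (Pgap1, −0.62) in FAP-like cells, and 0 of 20 either way in MO/MP-like cells.

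Cells were then grouped by their UMIs of the 30 type I genes after thinning to 2000 UMIs. In FAP-like cells 21.2% of the Ctrl and 48.0% of the dKO library carried 3 or more panel UMIs, and in MO/MP-like cells 41.2% and 80.1%. In FAP-like cells mean Ly6a was 2.32 UMIs at 0 panel UMIs, 2.74 at 1 to 2 and 4.13 at 3 or more in Ctrl. In dKO it was 3.52, 4.52 and 6.24. Mean Ly6e went from 0.751 to 0.908 and 1.55 in Ctrl, and from 0.928 to 1.38 and 2.22 in dKO. Mean Ly6c1 went from 1.01 to 1.12 and 1.21 in Ctrl, and from 1.34 to 1.69 and 2.11 in dKO. Within each group of panel UMIs, Ly6a and Ly6c1 were thus higher in dKO with intervals that did not overlap, whereas the Ly6e intervals overlapped at 0 panel UMIs. So small a count is a rough measure at 2000 UMIs, and every group may hold unlike panel levels in the libraries.

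In MO/MP-like cells mean Ly6a was 0.0277, 0.0289 and 0.191 UMIs over the same groups in Ctrl (289, 519 and 566 cells) and 0.191, 0.259 and 0.956 in dKO (47, 162 and 839 cells). Mean Ly6c2 was 0.325, 0.195 and 0.366 in Ctrl and 0.383, 0.426 and 0.764 in dKO, with overlapping intervals at 0 panel UMIs. The Ctrl cells with 3 or more panel UMIs thus had about the Ly6a mean of dKO cells with 0 (9 UMIs in all), as the plot by panel UMIs shows. The group of 3 or more has no upper limit and may hold unlike panel levels in the libraries.

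**Figure D5:**
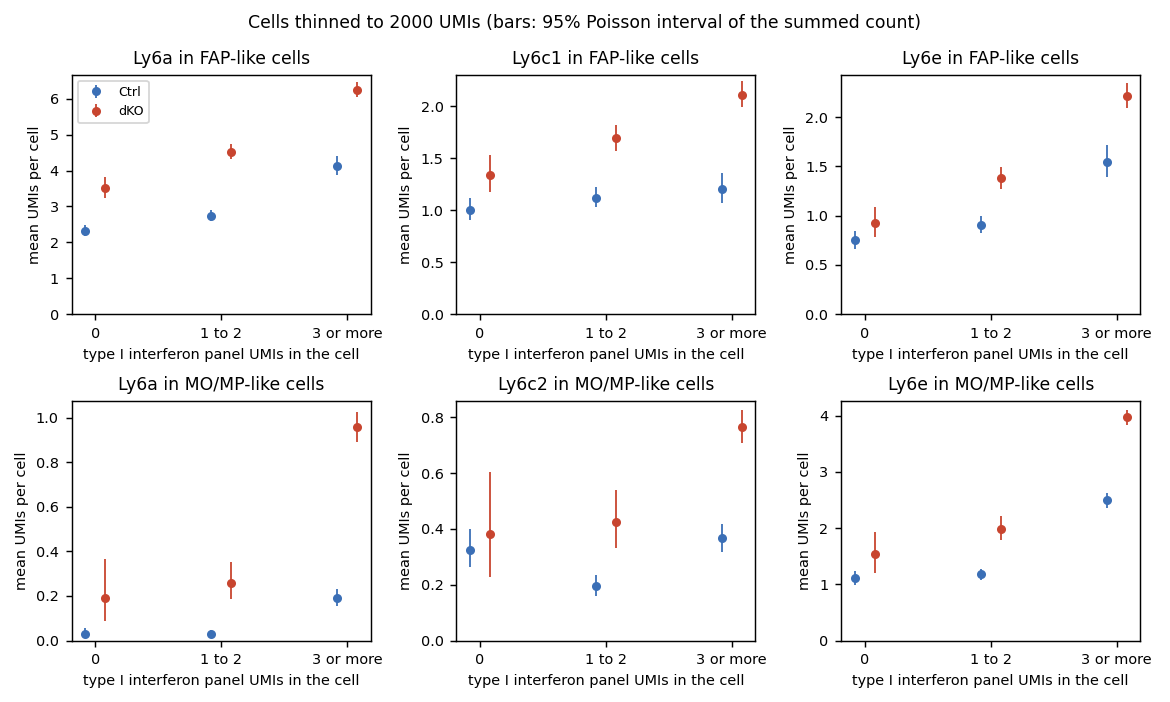
Mean UMIs per cell (y axis) of 3 members in FAP-like cells (top) and 3 in MO/MP-like cells (bottom), all cells thinned to 2000 UMIs, by UMIs of the type I interferon panel in the cell (x axis), Ctrl in blue and dKO in red, with 95% Poisson intervals of the summed counts as bars. Ly6a in FAP-like cells goes from 2.32 to 4.13 in Ctrl and from 3.52 to 6.24 in dKO across the groups.

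Other genes of the family were counted from lists. Of the chromosome 15 neighbours, 14 of 15 listed genes were in the files. Of the 2 with enough UMIs in FAP-like cells, 0 were past 1.5-fold higher and 1 lower, against 2.75% and 2.81% of all genes. In EC-like cells 0 of 1 was higher and 0 lower, against 4.6% and 7.33%. Ly6h stood at 15.8 CPM in Ctrl and 5.41 CPM in dKO FAP-like cells, and Lynx1 at 20.04 and 19.1 CPM. Gpihbp1, which carries lipoprotein lipase across capillary endothelium, stood at 786 and 528 CPM in EC-like cells, a ratio of 0.671. Ly6g, the neutrophil antigen of the Gr-1 antibody, had 446 and 173 CPM in neutrophil-like cells. Among 18 Ly6/uPAR genes elsewhere in the genome, Plaur, the urokinase receptor, had 79.6 and 72.4 CPM in MO/MP-like cells and a ratio of 2.33 in EC-like cells (54.8 and 127 CPM). The 2 neighbours with enough UMIs in FAP-like cells, Ly6h and Lynx1, had ratios of 0.342 (0.265 to 0.436) and 0.951 (0.812 to 1.11) there. With 2 genes, nothing is read from the contrast with Ly6a, Ly6c1 and Ly6e.

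Genes with the most similar pattern were sought over 20 pools of a class and a library with 30 or more cells, among 7040 genes, by Pearson correlation of log2(CPM + 10). The pools share their libraries and class definitions, so r is a description with no p. For Ly6a these were Jund (r = 0.86), Icam1 (0.85) and Irf1 (0.81). For Ly6c1 they were Atp8b1 (0.97), Cyb561 (0.97) and Cd34 (0.96), the last a surface antigen of ECs and FAPs. For Ly6c2 they were Atp8b4 (0.98), Sema4a (0.97) and Myo1f (0.97). For Ly6e they were H2-K1 (0.87), Parp14 (0.84) and B2m (0.84), with H2-K1 and B2m the chains of MHC class I. For Ly6d they were H2-Ob, H2-DMb2 and Bcl11a (each 0.99). The pattern of Ly6i rests on 4 and 2 UMIs in neutrophil-like cells and on 0 UMIs in 6 classes of each library, so nothing is read from the genes ranked closest to it, Lilra6, AI839979 and Mcemp1. Among the members themselves, Ly6a and Ly6c1 had r = 0.74 and Ly6c1 and Ly6c2 −0.51.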

How the data were processed

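The authors deposited UMI counts per gene and cell barcode for each library, not normalized. The file header names Cell Ranger 3.0.2, the submitters' processing notes Cell Ranger 7.0.0, mm10 and Seurat 4.3.0. Here cells with 500 or more genes were kept (192 Ctrl and 154 dKO cells left out). Scrublet (Scanpy 1.11.5) called only 8 and 21 cells, so the top 7.5% of scores were removed (325 and 250). Libraries were integrated with Seurat 5.3.0 anchors (R 4.3.3, 2000 variable genes without 42 Ly6/uPAR genes, 40 dimensions) and clustered at a resolution of 0.8, giving 22 clusters. Sub-clusters were made at 0.4. Clusters were named "X-like" from marker panels, given at least 3 enriched markers. Counts were summed per class, and intervals and thinning were computed in Python 3.11.15 with SciPy 1.17.1. No replicate test was possible. The ratio script was tested on simulated data. The members, gene lists and marker panels were chosen with earlier results of these data known. All members are named, with the 3 genes most like each and, from each list, up to 2 with the highest and 2 with the lowest ratio. The alternatives were other clusterings, filters, scalings and depths. A count of 0 allows up to 3 counts.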

Additional observations from a re-analysis of the deposited data

Results flagged for a closer look

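Ly6d stood at 943 CPM (222 UMIs) in the 37 Ctrl cells that were given no class and enter no comparison, above the level that a count of 0 allows, and only 2 of these cells held a Ly6d UMI. Those 2 cells had 123 and 99 Ly6d UMIs and also carried Krt14, an epidermal keratin, at 325 and 115 UMIs. The 19 dKO cells without a class had 0 Ly6d UMIs, which allows up to 27.5 CPM.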

How the results depend on the processing

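No paired analysis was possible because each group is 1 library. Of 120 alternative values of the ratios, 93 stayed within the counting interval of the reported value, 27 moved beyond it and 0 reversed a called direction. Log2 ratios that moved were, with a minimum of 200 genes per cell, 0.88 for Ly6a in FAP-like and 1.28 for Ly6e in MO/MP-like cells. With the median gene of a class set to 0 they were 0.91 for Ly6a, 0.84 for Ly6c1 and 0.78 for Ly6e in FAP-like cells. With cells thinned to 2000 UMIs they were 0.90 for Ly6a and 0.91 for Ly6e in FAP-like, 1.05 for Ly6e in MO/MP-like and 0.35 for Ly6a in EC-like cells. With the mean of single-cell CPM they were 0.74 for Ly6c1 and 0.79 for Ly6e in FAP-like cells, 2.81 for Ly6a, 1.03 for Ly6e and 0.053 for Ly6i in MO/MP-like cells and 0.35 for Ly6a in EC-like cells. With no doublets removed they were −0.081 for Ly6c1 and 0.34 for Ly6a in EC-like and 2.76 for Ly6a in MO/MP-like cells. With Ly6 genes kept in the clustering Ly6e in MO/MP-like cells had 1.29 and a dKO level of 1542 CPM, which ended its separation from EC-like cells. In that clustering a resident macrophage-type cluster went unnamed, and the MO/MP-like class held 1279 Ctrl and 988 dKO cells. With a minimum of 200 genes it held 1280 and 978, beside 1519 and 1163 in the main analysis. Other alternatives were chosen after seeing the data. Without the S100a8 and cycling sub-cluster, Ly6c2 and Ly6e in MO/MP-like cells had 1.59 and 1.29. In MO/MP-like cells without FAP marker UMIs (132 and 157 cells), Ly6c2 had 0.76, Ly6e 0.70, Ly6i 1.93 and Ly6a 3.21. With sub-clusters weighted as in Ctrl, Ly6c1 in EC-like cells had 0.27 and Ly6e in MO/MP-like cells 1.17. The causes of these moves were not tested. Ly6e in EC-like cells ranged from −0.06 to 0.09, and Ly6c1 from −0.081 to 0.27, so neither sign was fixed, and Ly6d in B cell-like cells from −0.40 to −0.16. Ly6i in MO/MP-like cells had 0.83 in the main analysis, past 1.5-fold. It fell under 1.5-fold with the mean of single-cell CPM and with thinning (0.39). With genes of 20 or more UMIs, a larger share of genes lay past 1.5-fold in each class given here. In FAP-like cells 585 of 12759 genes were higher (4.6%, main analysis 2.75%) and 767 lower (6.01%, main 2.81%). In EC-like cells 716 of 9079 were higher (7.89%, main 4.6%) and 1467 lower (16.2%, main 7.33%). In MO/MP-like cells 708 of 11591 were higher (6.11%, main 4.39%) and 1036 lower (8.94%, main 4.55%). Genes past 1.5-fold higher were 668 of 8106 in tenocyte-like (8.24%, main 2.94%) and 808 of 6844 in dendritic cell-like cells (11.8%, main 5.57%). They were 675 of 5097 in T cell-like (13.2%, main 4.77%) and 534 of 3874 in B cell-like cells (13.8%, main 3.66%).

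Each group is 1 library, so genotype, mice, sorting and library preparation cannot be told apart. Ly6i (58 and 59 UMIs in all) was too sparse to order over most classes. Lymphatic EC-like (18 and 13) and dKO MuSC-like cells (30) were few. At an assumed read length of 90 bases, reads in 35 of 411 windows of Ly6c1 and Ly6c2 cannot be assigned to one gene.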

Other observations

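Outside the B cell-like class, Ly6d sat in very few cells. In 10 cells with 5 or more UMIs (8 in Ctrl, 2 in dKO) lay 566 of the 597 Ctrl UMIs (94.8%) and 194 of the 199 dKO UMIs (97.5%). In 5 of these cells, 4 in Ctrl with 504 UMIs and 1 in dKO with 186, genes of stratified epithelium were found beside it. A Ctrl cell of the dendritic cell-like class with 225 Ly6d UMIs had 162 UMIs of Perp and 68 of Sfn, and the dKO cell had 133 of Krt14. In 3 Ctrl cells with 48 Ly6d UMIs together, Siglech and Ccr9, genes of plasmacytoid dendritic cells, were found, and 2 cells had Cd79a UMIs. These companion genes were picked after the values were seen, and no explanation was tested.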
